A study of Homo sapiens with 4 samples.

Results

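The genes described here are 10 members of the NF-κB system, measured in HaCaT keratinocytes that overexpress TCN1 and in control cells. They were taken by gene symbol from the deposited gene tables, and all 10 were found among the 29209 genes listed. They comprise 4 subunits of the transcription factor (NFKB1, NFKB2, RELA and RELB), 3 inhibitors (NFKBIA, NFKBIE and TNFAIP3) and 3 target genes (TNFAIP2, BIRC3 and ICAM1). HaCaT is a spontaneously immortalised human keratinocyte line. The overexpression line, called TCN1_OE here, was transduced with lentivirus to overexpress TCN1, which encodes a secreted protein that binds vitamin B12, and the negative control line is called NC. Both were cultured in DMEM with serum, and RNA was harvested after 48 hours. The labels name no cytokine or other stimulus, and nothing in the sources used here gives the promoter of the construct or the make-up of the control virus. Each line gave 2 libraries of polyA RNA, and the labels do not say whether they were grown as separate cultures. A p-value therefore reflects the scatter of these libraries alone, and that scatter may be technical.

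NF-κB is a family of dimeric transcription factors built from RelA, RelB, c-Rel and the processed products of NFKB1 and NFKB2. In resting cells the dimers are held in the cytoplasm by IκB proteins such as the products of NFKBIA and NFKBIE, and signals from TNF, interleukin-1 or Toll-like receptors lead to IκB phosphorylation and degradation. The freed dimers switch on inflammatory and survival genes and, with them, their own inhibitors, so that NFKBIA and TNFAIP3 act as negative feedback. In epidermis the pathway is known for its part in inflammation and in the balance between growth and differentiation of keratinocytes.

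The binding sequence of these factors, the κB motif, is the feature that ties the feedback genes to the pathway, so the stretches that hold it are shown. RefSeq promoter windows of the GRCh38.p14 build, running from 250 bases before to 50 bases after a gene's start, were matched for 8 of the 10 genes, with 12 windows in all; NFKBIE and RELB have none. The motif searched was GGGNNTTTCC, on both strands. It was present in 6 of the 12 windows, from 5 of the 8 genes, and in 1.91% of all 35116 windows. The looser κB consensus, searched on both strands as well, was held by the same number of these windows and by 11.3% of all windows; its matches include those shown. These genes are known for NF-κB control, so the counts describe the set and are no independent evidence of it. Each 30-base stretch below reads 5′ to 3′ on the gene's own strand, and capitals mark a match to GGGNNTTTCC or to its reverse complement. The stretches lie at chr4:102501300-102501329 (NFKB1, plus strand), chr10:102394490-102394519 and chr10:102395674-102395703 (NFKB2, plus strand, before 2 alternative starts), chr14:35404811-35404840 (NFKBIA, minus strand), chr6:137867188-137867217 (TNFAIP3, plus strand) and chr11:102317275-102317304 (BIRC3, plus strand).
NFKB1: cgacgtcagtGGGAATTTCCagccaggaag
NFKB2, first stretch: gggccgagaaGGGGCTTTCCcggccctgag
NFKB2, second stretch: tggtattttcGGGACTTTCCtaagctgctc
NFKBIA: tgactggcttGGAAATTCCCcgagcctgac
TNFAIP3: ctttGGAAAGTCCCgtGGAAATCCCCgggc
BIRC3: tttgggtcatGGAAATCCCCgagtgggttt
TNFAIP3 carried 2 matches side by side, and BIRC3 had the match farthest from its start, at 199 to 190 bases before it. The windows of RELA, TNFAIP2 and ICAM1 held no match to these letters, which says nothing about binding there or elsewhere.

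The libraries held 16586500 and 14756073 counts in TCN1_OE and 19973550 and 11593377 counts in NC. Levels are given as FPKM, a count corrected for the length of the gene and for the library's total. TCN1 stood at 68.3 and 56.6 FPKM in TCN1_OE and at 1.67 and 0.978 FPKM in NC. All 6 keratinocyte markers (KRT5, KRT14, TP63, DSG3, DSC3 and KRT6A) were above 1 FPKM in every library. Markers of leukocytes, a cell type rich in NF-κB targets, summed to between 2.16 and 3.04 FPKM in TCN1_OE and between 2.27 and 2.57 FPKM in NC over 6 listed genes; CD14 made up most of this, and PTPRC, their defining marker, was at 0 in both NC libraries and at 0.0234 FPKM or less in TCN1_OE. Endothelial markers summed to between 1.00 and 1.37 FPKM in TCN1_OE and between 0.904 and 1.31 FPKM in NC over 4 listed genes. Fibroblast markers summed to between 1.82 and 2.05 FPKM in TCN1_OE and between 1.86 and 2.12 FPKM in NC over 3 listed genes. Melanocyte markers summed to between 2.90 and 3.07 FPKM in TCN1_OE and between 2.73 and 2.75 FPKM in NC over 5 listed genes, of which MITF alone averaged at least 1 FPKM, and here the lines did not overlap. Of these genes only PMEL was higher without overlap, at 1.07 and 1.14 FPKM in TCN1_OE and 0.805 and 0.869 FPKM in NC. SOX10 went the other way, at 0.0250 and 0.0421 FPKM in TCN1_OE and 0.0622 and 0.0715 FPKM in NC, and MITF and MLANA overlapped. Mitochondrially encoded genes took 6.04% and 5.65% of counts in TCN1_OE and 5.33% and 5.13% in NC.

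None of the 10 genes differed between the lines at an adjusted p under 0.05 in edgeR's quasi-likelihood test, where 0.285% of the 15113 genes tested were called higher and 0.212% lower. DESeq2 also called 0 of 10, against 0.903% of genes called higher and 0.928% lower. At an unadjusted edgeR p under 0.05, 1 of 10 passed, TNFAIP2, against 12.8% of all genes. The median log2 fold change of the 10 genes (TCN1_OE over NC) was -0.08, with 3 positive and 7 negative, beside a median of 0.00 over all genes tested. The median size of their change, without regard to sign, was 0.10 on the log2 scale, against 0.17 over all genes tested. These sets were not matched for counts, and 7 of the 10 genes have over 1000 counts summed over the libraries. The 95% interval of the fold change lay within 1.5-fold in either direction for 7 of the 10 genes and within 2-fold for all 10, so changes beyond 2-fold lie outside the intervals. The smallest p that an exact two-sided permutation test of 1 gene can reach with these 4 libraries is 0.333, so edgeR's shared estimate of the spread carries the tests.

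The subunits were expressed at unequal levels that were close in both lines. Gene positions here and below are those of GENCODE 29 on GRCh38. RELA (ENSG00000173039, chr11:65653596-65663094, minus strand), which encodes the p65 subunit that carries the activation domain of the common dimer, had 18.9 and 20.8 FPKM in TCN1_OE and 19.2 and 20.9 FPKM in NC. The groups overlapped, and replicate 2 was the higher library in both lines. The log2 fold change of RELA was -0.02 ± 0.10 (SE; edgeR adjusted p 0.962), and the 95% interval of the fold change ran from 0.842 to 1.16. NFKB1 (ENSG00000109320, chr4:102501329-102617302, plus strand), which encodes a precursor that is cut to the p50 partner of RelA, had 5.64 and 5.62 FPKM in TCN1_OE and 6.15 and 5.83 FPKM in NC. Both TCN1_OE libraries lay below both NC libraries, by a small margin. Its log2 fold change was -0.09 ± 0.09 (edgeR adjusted p 0.742).

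The remaining subunits belong to the non-canonical arm of the pathway, in which the NFKB2 precursor is processed to p52, the partner of RelB. NFKB2 (ENSG00000077150, chr10:102394110-102402529, plus strand) had 9.21 and 11.2 FPKM in TCN1_OE and 9.89 and 10.3 FPKM in NC. The NC libraries lay between the TCN1_OE libraries, and the log2 fold change was 0.01 ± 0.13 (edgeR adjusted p 0.977). RELB (ENSG00000104856, chr19:45001430-45038198, plus strand) had 3.36 and 4.14 FPKM in TCN1_OE and 3.63 and 4.72 FPKM in NC. The groups overlapped, replicate 2 was again the higher library in both lines, and the log2 fold change was -0.15 ± 0.21 (edgeR adjusted p 0.822). Its interval, from 0.655 to 1.24 in fold, was the widest of the subunits, on 167 and 183 counts in TCN1_OE and 217 and 164 counts in NC. The 4 subunits summed to 39.4 ± 3.29 FPKM in TCN1_OE and 40.3 ± 2.02 FPKM in NC (SD, n = 2 each). RELA made up 50.3 ± 0.82% of that sum in TCN1_OE and 49.7 ± 0.42% in NC. This share rests on the gene lengths behind the deposited FPKM, and over the 4 libraries it was 39.0% with GENCODE 29 exon lengths.

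**Figure D1:**
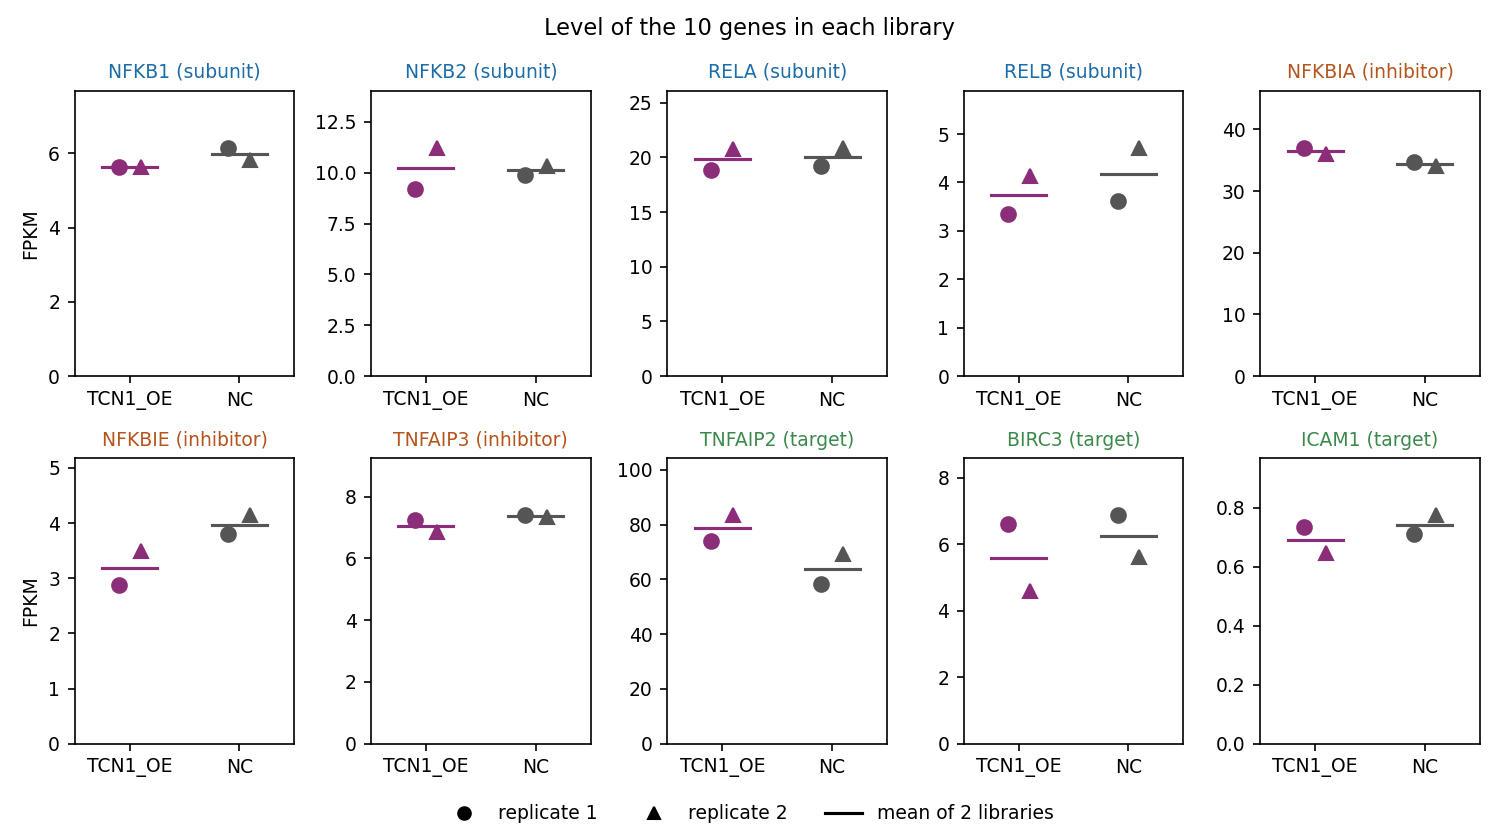
Expression (FPKM, linear axis from 0) of each of the 10 genes in the 2 TCN1_OE libraries (left in each panel) and the 2 NC libraries (right), with circles for replicate 1, triangles for replicate 2 and bars for the mean. Both TCN1_OE libraries lie above NC for NFKBIA and TNFAIP2 and below NC for NFKB1, NFKBIE and TNFAIP3, and the groups overlap for the other 5 genes.

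Of the inhibitors, NFKBIA (ENSG00000100906, chr14:35401511-35404749, minus strand), which encodes IκBα, was the most abundant. It had 37.1 and 36.1 FPKM in TCN1_OE and 34.7 and 34.1 FPKM in NC. Both TCN1_OE libraries were above both NC libraries, and the replicates of each line were close to each other. The log2 fold change was 0.08 ± 0.09 (edgeR adjusted p 0.749), and the 95% interval of the fold change ran from 0.924 to 1.22. NFKBIE (ENSG00000146232, chr6:44258166-44265788, minus strand), which encodes IκBε, had 2.87 and 3.49 FPKM in TCN1_OE and 3.80 and 4.14 FPKM in NC. Both TCN1_OE libraries were below both NC libraries, on 123 and 133 counts in TCN1_OE and 196 and 124 counts in NC. This was the lowest of the 10 fold changes, at -0.32 ± 0.20 on the log2 scale, and did not pass, with an edgeR adjusted p of 0.548 and an interval from 0.589 to 1.09 in fold. Its log2 fold change was -0.48 without TCN1_OE replicate 2 and -0.18 without TCN1_OE replicate 1.

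TNFAIP3 (ENSG00000118503, chr6:137867188-137883312, plus strand) encodes A20, a ubiquitin-editing enzyme that shuts down signalling to the IκB kinase. It had 7.24 and 6.85 FPKM in TCN1_OE and 7.40 and 7.34 FPKM in NC. The TCN1_OE libraries were lower, with the nearest libraries of the groups almost level, and the log2 fold change was -0.07 ± 0.11 (edgeR adjusted p 0.851). Summed, the 3 inhibitors stood at 46.8 ± 0.54 FPKM in TCN1_OE and 45.7 ± 0.23 FPKM in NC (SD, n = 2 each). The ratio of NFKBIA to RELA in FPKM was 1.96 and 1.74 in TCN1_OE and 1.80 and 1.63 in NC, so the groups overlapped. The ratio of NFKBIA to NFKBIE was 12.9 and 10.3 in TCN1_OE and 9.12 and 8.22 in NC. The ratio of NFKBIA to TNFAIP3 was 5.12 and 5.27 in TCN1_OE and 4.69 and 4.65 in NC. The last 2 ratios were higher in both TCN1_OE libraries; they were computed after the values were seen and carry no test.

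The promoter sequence upstream of NFKBIA is given in full, because this gene is the classic feedback target of the pathway and its TCN1_OE libraries lay above NC. Its difference did not pass, and 21.7% of all genes tested lay above NC without overlap. TNFAIP3, also a feedback gene, lay below NC. The sequence of TNFAIP2, the gene with the lowest p, is given beside that of NFKBIA. They cover the 250 bases before the RefSeq start, at chr14:35404750-35404999 (minus strand) and chr14:103123211-103123460 (plus strand) of GRCh38.p14, and capitals mark a match to the κB consensus.
NFKBIA: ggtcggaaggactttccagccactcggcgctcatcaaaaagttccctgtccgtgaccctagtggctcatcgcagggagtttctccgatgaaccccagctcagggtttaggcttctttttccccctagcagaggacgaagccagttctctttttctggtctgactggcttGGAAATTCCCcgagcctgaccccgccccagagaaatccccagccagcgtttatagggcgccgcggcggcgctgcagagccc
TNFAIP2: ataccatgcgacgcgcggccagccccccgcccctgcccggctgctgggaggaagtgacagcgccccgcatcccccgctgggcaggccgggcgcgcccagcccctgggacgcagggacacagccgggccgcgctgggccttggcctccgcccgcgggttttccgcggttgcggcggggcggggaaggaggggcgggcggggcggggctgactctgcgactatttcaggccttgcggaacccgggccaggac
The G and C content of these stretches was 59.2% for NFKBIA and 77.2% for TNFAIP2.

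TNFAIP2 (ENSG00000185215, chr14:103123442-103137439, plus strand), a gene first known for its induction by TNF, had the highest level and the highest fold change of the set. It stood at 74.2 and 83.5 FPKM in TCN1_OE and 58.3 and 69.2 FPKM in NC, on 6224 and 6232 counts in TCN1_OE and 5890 and 4059 counts in NC. Both TCN1_OE libraries were above both NC libraries, with the lower TCN1_OE library close to the higher NC library. The log2 fold change was 0.30 ± 0.11, or 1.23-fold with a 95% interval from 1.04 to 1.46, with an unadjusted p of 0.0200 and an adjusted p of 0.276 in edgeR's test. DESeq2 gave 0.31 ± 0.13, with an adjusted p of 0.296. The fold change of TNFAIP2 was at the 83.9th percentile of all genes tested, so many genes differed by more. The 2 libraries with more TNFAIP2 also had the larger mitochondrial share of counts and the larger sum of melanocyte markers, among which only PMEL was higher without overlap. The part of either in this difference was not tested. In bulk RNA a higher level in each cell and more cells with the transcript cannot be told apart.

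BIRC3 and ICAM1 complete the targets. BIRC3 (ENSG00000023445, chr11:102317450-102339403, plus strand), which encodes the apoptosis inhibitor and ubiquitin ligase c-IAP2, had 6.61 and 4.58 FPKM in TCN1_OE and 6.88 and 5.61 FPKM in NC. Replicate 1 was the higher library in both lines and the groups overlapped. The log2 fold change of BIRC3 was -0.17 ± 0.17 (edgeR adjusted p 0.741). Its paralog BIRC2, with which reads could be shared, averaged 25.7 FPKM in both lines and had a log2 fold change of -0.01 ± 0.10. ICAM1 (ENSG00000090339, chr19:10270835-10286615, plus strand), the adhesion molecule that leukocytes bind on inflamed keratinocytes and endothelium, was the lowest of the set, with 0.734 and 0.649 FPKM in TCN1_OE and 0.711 and 0.776 FPKM in NC. This rested on 42 and 33 counts in TCN1_OE and 49 and 31 counts in NC, above the level that 3 counts give, which was at most 0.0750 FPKM (counting error only). Its log2 fold change was -0.10 ± 0.30 (edgeR adjusted p 0.930), with an interval from 0.585 to 1.49 in fold. Of its exonic bases 23.6% lie under antisense genes, whose reads cannot be told apart in a library that does not mark strand.

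**Figure D2:**
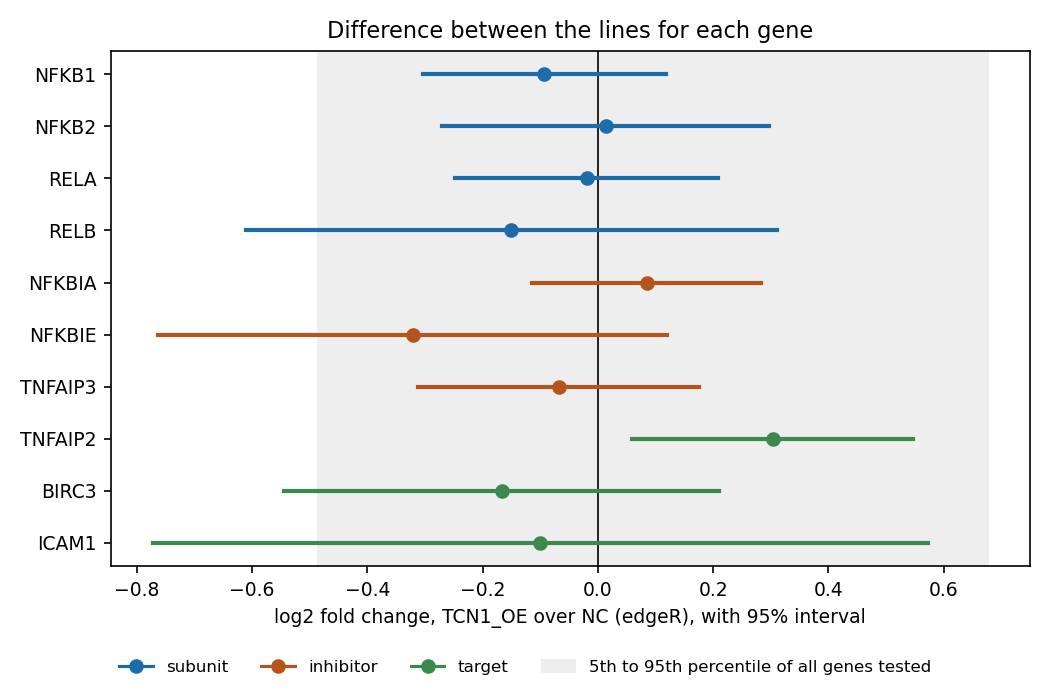
Log2 fold change (TCN1_OE over NC, edgeR) of each of the 10 genes with its 95% interval, coloured by role, over a grey band from the 5th to the 95th percentile of all genes tested (-0.49 to 0.68). All 10 points lie inside the band, and the interval of TNFAIP2, from 0.06 to 0.55, is the one that does not cross 0.

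The order of the mean levels was the same in both lines, except that BIRC3 and NFKB1 changed places. By mean FPKM over the 4 libraries it ran TNFAIP2 (71.3), NFKBIA (35.5), RELA (20.0), NFKB2 (10.2), TNFAIP3 (7.21), BIRC3 (5.92), NFKB1 (5.81), RELB (3.96), NFKBIE (3.58) and ICAM1 (0.717). The library ranges overlapped between TNFAIP3 and BIRC3, between BIRC3 and NFKB1 and between RELB and NFKBIE. Within each library TNFAIP3 was still above BIRC3. The order of BIRC3 and NFKB1 and that of RELB and NFKBIE varied between libraries. The other neighbours had ranges that did not overlap. The order also depends on the gene length behind the FPKM, which the deposited values imply to be 15679 bp for NFKB1, while its exons in GENCODE 29 cover 6257 bp. With GENCODE 29 lengths, an alternative chosen after the values were seen, NFKB1 averaged 14.6 FPKM and stood ahead of NFKB2 at 12.7 FPKM, and NFKBIA averaged 50.7 FPKM. RELA then made up 39.0% of the 4 subunits. Only the length was changed here and the counts stayed as deposited, so these values are not levels counted on GENCODE 29. A change of length scales all 4 libraries alike, so it leaves the fold changes between the lines as they are. TNFAIP2 exceeded ICAM1, a target of the same pathway, by 101 and 129 times in TCN1_OE and by 81.9 and 89.3 times in NC, on the FPKM scale.

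For 5 of the 10 genes the difference between replicates of at least 1 line was larger than that between the lines. For the other 5, NFKB1, NFKBIA, NFKBIE, TNFAIP3 and TNFAIP2, the groups did not overlap, 2 with TCN1_OE above NC and 3 below; over all genes tested the groups did not overlap for 42.7%, with 21.7% above and 21.0% below, close to the share among these 10. As log2 of replicate 2 over replicate 1 in CPM (counts scaled to library size, here with edgeR's TMM factors), BIRC3 stood at -0.51 in TCN1_OE and -0.27 in NC, and RELB at 0.32 in TCN1_OE and 0.40 in NC. NFKBIA stood at -0.02 in TCN1_OE and -0.01 in NC. The sign was the same in both lines for 7 of the 10 genes.

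**Figure D3:**
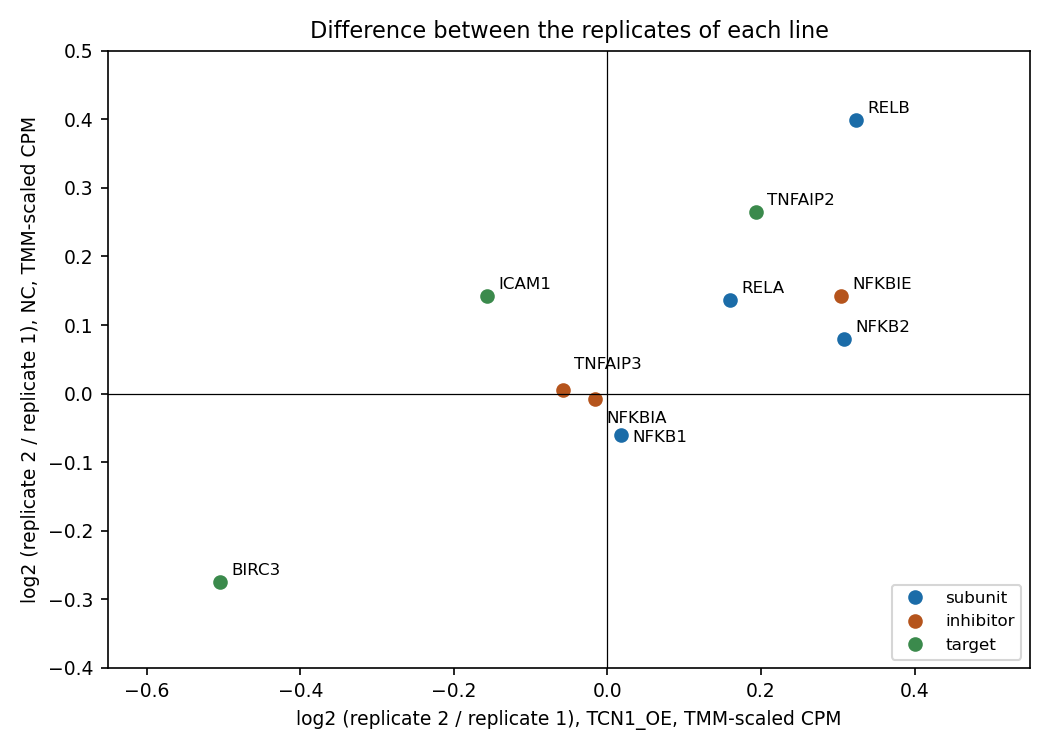
Log2 of replicate 2 over replicate 1 in TMM-scaled CPM, in TCN1_OE (horizontal) and in NC (vertical), for the 10 genes, coloured by role. BIRC3 lies lower left (-0.51 and -0.27) and RELB upper right (0.32 and 0.40), while NFKBIA, TNFAIP3 and NFKB1 lie near the origin.

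The rest of the pathway was read from 6 lists of 109 genes by role, of which 90 were tested. None of the 90 was called by edgeR in either direction; 7 were higher and 6 lower at an unadjusted p under 0.05, against 6.00% and 6.81% of all genes, and DESeq2 called 2 lower, TNFRSF12A and IL1A. Of these 90 genes 50 were positive and 40 negative, with a median log2 fold change of 0.03. Among 20 receptors and adaptors 9 were positive and 11 negative, with a median of -0.01. TNFRSF12A, the receptor for the cytokine TWEAK, had 9.47 and 13.9 FPKM in TCN1_OE and 18.0 and 21.7 FPKM in NC, a log2 fold change of -0.76 ± 0.19 with an edgeR adjusted p of 0.128; both TCN1_OE libraries were below NC. TRAF3, an adaptor that restrains the non-canonical arm, stood at -0.35 ± 0.12, and IRAK1, a kinase of interleukin-1 and Toll-like receptor signalling, at -0.26 ± 0.14.

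Among 16 kinases and ligases that activate NF-κB, 8 were positive and 8 negative, with a median of 0.00. The catalytic subunits of the IκB kinase stood on opposite sides: CHUK (IKKα) had 7.12 and 6.59 FPKM in TCN1_OE and 9.39 and 8.01 FPKM in NC, at -0.35 ± 0.12 on the log2 scale. IKBKB (IKKβ) had 7.45 and 7.80 FPKM in TCN1_OE and 6.60 and 6.21 FPKM in NC, at 0.25 ± 0.10. Neither group pair overlapped, as for 42.7% of all genes tested, and both genes were named for their small p, which favours such a separation. Neither gene passed, with edgeR adjusted p of 0.245 for CHUK and 0.338 for IKBKB. UBE2N, the ubiquitin-conjugating enzyme that makes the chains used in this signalling, stood at -0.35 ± 0.11, with an edgeR adjusted p of 0.207. Of the 4 tested genes of the other Rel and IκB family, REL, which encodes c-Rel, had 3.89 and 3.09 FPKM in TCN1_OE and 3.33 and 2.81 FPKM in NC. The atypical IκB proteins BCL3 and NFKBIZ stood at 0.21 ± 0.14 and 0.07 ± 0.11. NFKBID, the remaining tested gene of this list, averaged 0.903 FPKM and stood at -0.21 ± 0.28. The list had a median of 0.12, with 3 positive and 1 negative. The 14 other negative regulators had a median of 0.02, with 7 positive and 7 negative. In that list CYLD, a deubiquitinase, stood at 0.17 ± 0.11, TNIP1, a partner of A20, at -0.14 ± 0.10, and RNF11, another part of the A20 complex, at 0.10 ± 0.11.

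The secreted and surface targets had the highest median of the 6 lists, at 0.17 over 17 tested genes. Of these, 13 were positive and 4 negative, beside 7608 positive of all 15113 genes tested. An unadjusted edgeR p under 0.05 was reached by 4 higher genes and 1 lower gene, against 6.00% and 6.81% of all genes. Whether this list departs from those shares was not tested. C3, the complement component, had 21.2 and 23.2 FPKM in TCN1_OE and 16.1 and 17.7 FPKM in NC, a log2 fold change of 0.39 ± 0.10 with an edgeR adjusted p of 0.122. LCN2, an iron-sequestering antimicrobial protein, had 16.1 and 17.4 FPKM in TCN1_OE and 11.3 and 12.3 FPKM in NC, at 0.50 ± 0.14 and an edgeR adjusted p of 0.168. IL1A, the alarmin interleukin-1α, went the other way, with 0.418 and 0.538 FPKM in TCN1_OE and 1.34 and 2.31 FPKM in NC. IL1A rested on 14 and 16 counts in TCN1_OE and on 54 and 54 counts in NC libraries of unequal depth. Its log2 fold change was -1.91 ± 0.40, the largest in size of the 90 genes, with an edgeR adjusted p of 0.0765. Each fit without 1 library leaves a single library in 1 line. Across these fits the log2 fold change of IL1A ran from -2.28 (without NC replicate 1) to -1.48 (without NC replicate 2). The highest adjusted p of IL1A among its alternatives was 0.212, from limma on FPKM, while DESeq2 gave 0.0355.

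The 19 tested intracellular targets had a median of 0.02, with 10 positive and 9 negative. CFLAR, the caspase-8 inhibitor, had 2.05 and 1.82 FPKM in TCN1_OE and 1.35 and 1.37 FPKM in NC, at 0.51 ± 0.12 with an edgeR adjusted p of 0.104. MAP3K8, a kinase held by the NFKB1 precursor, had 11.8 and 9.89 FPKM in TCN1_OE and 8.51 and 7.68 FPKM in NC, at 0.42 ± 0.13 with an adjusted p of 0.217 in the same edgeR test. IRF1, a transcription factor induced by interferon and TNF, stood at 0.22 ± 0.11. CFLAR, MAP3K8, C3 and LCN2 each had both TCN1_OE libraries above both NC libraries, as 21.7% of all genes tested did. These genes were named for their small p, which favours such a separation. The mitochondrial share of counts also lay above NC, as did the summed melanocyte markers, among which only PMEL was higher without overlap. The part of either in these values was not tested. With 1 library left out, and so a single library in 1 line, the log2 fold change of CFLAR ran from 0.43 to 0.58. That of C3 then ran from 0.31 to 0.47, and that of IRAK1 from -0.48 without TCN1_OE replicate 2 to -0.08 without TCN1_OE replicate 1. Over all 13 alternatives that of TNFRSF12A ran from -1.08 to -0.50.

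**Figure D4:**
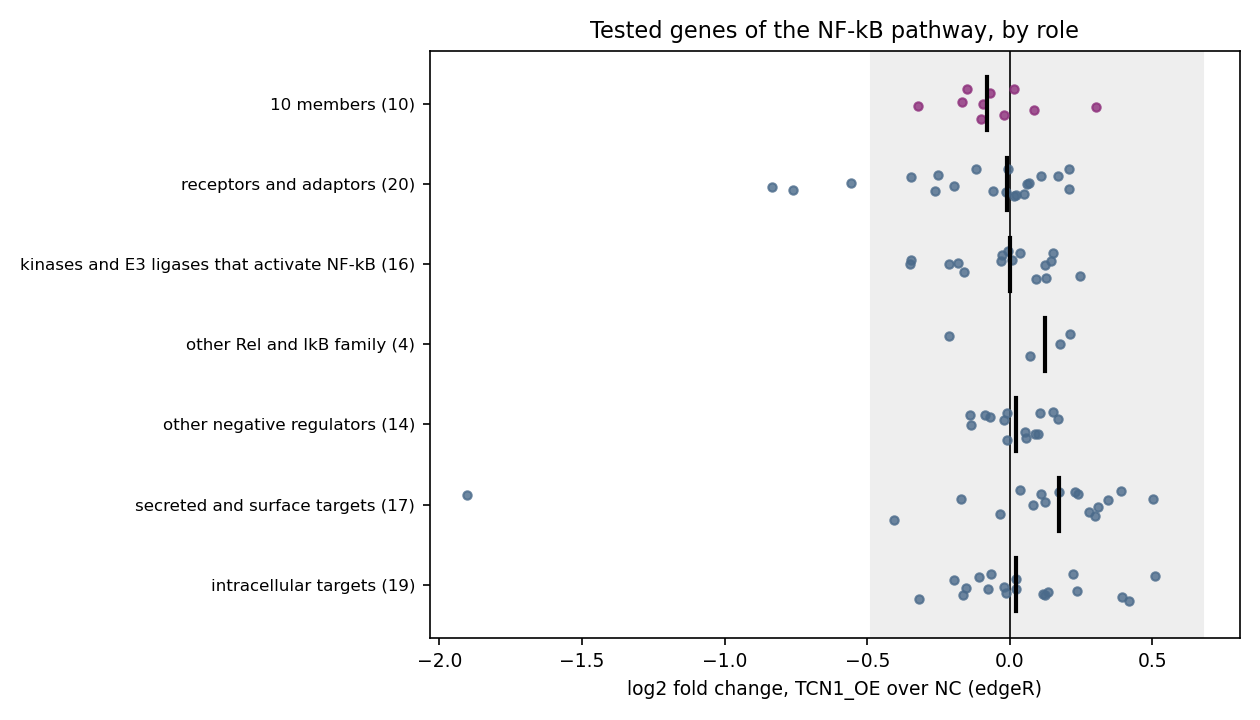
Log2 fold change (TCN1_OE over NC, edgeR) of every tested gene among the 10 genes described (top) and in the 6 pathway lists, with the number tested in brackets, black bars for medians and a grey band for the 5th to 95th percentile of all genes tested. Medians run from -0.08 for the 10 genes to 0.17 for the secreted and surface targets, and the point farthest to the left is IL1A.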

How the data were processed

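PolyA RNA of 2 TCN1_OE and 2 NC libraries was sequenced after preparation with a NEBNext Ultra kit that does not mark strand, per the labels' protocols. Reads were aligned with HISAT2 and counted with HTSeq 0.13.5 on GRCh38, per the submitters' processing notes; the sources used here do not give the annotation release or how strand and multi-mapping reads were handled. The deposited files hold a raw count and an FPKM per gene, per the file headers, and the FPKM rests on the listed counts (implied gene lengths were whole in 100% of 94850 values above 0, within 1e-04 bp). Counts were tested with edgeR 4.0.16 in R 4.3.3 (quasi-likelihood, TMM, robust, filterByExpr with a minimum count of 10, Benjamini-Hochberg over 15113 genes); all 10 genes passed the filter. DESeq2 1.42.0 and limma 3.58.1 were alternatives. Standard errors are the log2 fold change over the root of F. On simulated counts for TCN1_OE against NC with 15113 genes, edgeR recovered 25 of 34 genes changed 1.5-fold and 35 of 37 changed 2-fold among genes with over 1000 counts summed, as 7 of the 10 genes have. Between 300 and 1000 counts, as for RELB and NFKBIE, it recovered 0 of 11 and 6 of 9. Under 300 counts, as for ICAM1, it recovered 0 of 22 and 2 of 21. The same run made 8 false calls among the unchanged genes. Its scatter was estimated from these libraries, so recovery holds only for scatter of that size, which may be technical. The 10 genes and the lists were chosen with earlier results of these data known. From each list, the up to 3 genes with the smallest edgeR p and a mean of at least 1 FPKM were named. BIRC2, NFKBID and sums and ratios of the 10 genes fall outside that rule.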

Additional observations from a re-analysis of the deposited data

How the results depend on the processing

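Under 13 alternatives the 10 genes were called in 1 case: TNFAIP2 was higher with the replicate number as a block (1 called higher, edgeR adjusted p 1.1e-09), a fit that leaves 1 residual degree of freedom. The labels do not say that numbers pair libraries, and the deviations of same-numbered libraries correlated at 0.15 across 15113 genes. With this replicate block 14 pathway genes were called higher and 11 lower, and 1216 and 1655 of all genes. Other settings gave 0 calls among the 10 genes, with 0 or 1 at an unadjusted p under 0.05, or 2 without TCN1_OE replicate 1. NFKB2 reversed to -0.0039 without a filter. Leaving out 1 library, BIRC3 ran from -0.45 to 0.057, NFKB2 from -0.15 to 0.16, RELA from -0.11 to 0.056, RELB from -0.35 to 0.049 and RNF11 from -0.0012 to 0.20, so their signs are not settled; TNFAIP2 ran from 0.18 to 0.44 and the median of the 10 genes from -0.07 to 0.0039. Pathway calls were 2 higher and 2 lower without a filter, 1 lower without scaling factors, 2 lower with DESeq2, and 0 to 1 higher and 0 to 3 lower leaving out 1 library. Of all genes, 43 were higher and 32 lower; DESeq2 called 110 and 113, limma 1 and 0 with either pseudocount, edgeR 200 and 275 without a filter, 69 and 63 without scaling factors, 14 lower at 1 FPKM or more, and 104 to 188 higher and 106 to 142 lower leaving out 1 library. The cause of these shifts was not tested. ICAM1, under 1 FPKM, was not in the fits of genes of at least 1 FPKM, and the interval of its fold runs from 0.585 to 1.49. The gene length used for FPKM moves levels between genes, most for NFKB1 (5.81 FPKM as deposited and 14.6 FPKM with the same counts over the GENCODE 29 exon length), and no fold change.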
